A study of Homo sapiens with 18 samples.

Results

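SMG1 is the gene of a large protein kinase, and shortened copies of it lie along chromosome 16. The 8 genes described here are SMG1 itself, the 6 pseudogenes SMG1P1, SMG1P2, SMG1P3, SMG1P5, SMG1P6 and SMG1P7, and ENSG00000260342, an annotated gene beside SMG1. They are 8 of the 60612 rows of the count table and were taken by Ensembl gene ID. SMG1P6 had been picked because its counts were lower with the plasmid EXACT1 in HepG2, and ENSG00000260342 because its counts were higher with EXACT1 in SH-SY5Y. Those 2 differences are therefore given as descriptions with no test. The other 6 genes were added by family.

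SMG1 belongs to the phosphatidylinositol 3-kinase-related kinases (PIKK), the family of ATM, ATR, mTOR and DNA-PK. In a complex with SMG8 and SMG9 it phosphorylates the helicase UPF1, a central step of nonsense-mediated decay (NMD), the pathway that destroys mRNAs with a premature stop codon and also lowers many ordinary transcripts. Blocks of the human chromosome 16 that carry part of SMG1 were duplicated during primate evolution, often together with genes of the NPIP family, and the copies lack the end of the gene that encodes the kinase domain.

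Polyadenylated RNA was sequenced with a strand-marking kit from HepG2 cells, a human liver cancer line, and from SH-SY5Y cells, a human neuroblastoma line. Each line had 3 control libraries, whose plasmid encoded mNeonGreen, a green fluorescent protein, and 3 EXACT1 libraries, whose plasmid encoded the miRNA EXACT1 besides mNeonGreen. All 4 groups, the controls too, thus received plasmid and mNeonGreen. HepG2 cells were transfected with 100 ng plasmid per well in a lipid reagent and SH-SY5Y cells were nucleofected, so cell line and transfection method cannot be told apart. The 6 HEK293A libraries of the series were not used here, because their counts do not belong to the gene IDs beside them. Comparing the plasmids asks which host transcripts differ when EXACT1 is present. Comparing the lines asks how the SMG1 family differs between cell types.

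The annotation places all 8 genes on chromosome 16 (GRCh38). SMG1 (ENSG00000157106) lies at chr16:18804853-18926454 on the minus strand and has 17 transcripts. Its longest transcript has 16115 bases in 63 exons, of which 10983 are coding. The pseudogenes lie at chr16:22437008-22492220 (SMG1P1, plus strand), chr16:29527568-29594966 (SMG1P2), chr16:21446683-21520444 (SMG1P3), chr16:30267553-30335374 (SMG1P5), chr16:29425800-29447026 (SMG1P6) and chr16:70219574-70246610 (SMG1P7), the last 5 on the minus strand. All of them are on the short arm except SMG1P7, which is on the long arm.

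Each pseudogene matched only the early part of the SMG1 coding sequence. SMG1P1, SMG1P2, SMG1P3 and SMG1P5 covered exons 2 to 29 of 63, SMG1P7 covered 18 exons between 8 and 29, and SMG1P6 covered exons 11 to 29. Their longest transcripts were 97.8% (SMG1P1 and SMG1P3) to 98.81% (SMG1P6) identical to SMG1 over the aligned bases, and SMG1P6 differed from SMG1 at 35 of 2930 bases. The following 60 bases of SMG1 exon 22 (chr16:18868295-18868354, coding bases 3031 to 3090) show how little separates the copies. They are the coding stretch aligned in all 6 copies that had the most positions at which any copy differs. Capitals mark bases that differ from SMG1.
SMG1: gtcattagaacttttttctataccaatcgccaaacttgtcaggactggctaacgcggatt
SMG1P1: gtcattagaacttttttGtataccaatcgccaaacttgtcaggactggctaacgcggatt
SMG1P2: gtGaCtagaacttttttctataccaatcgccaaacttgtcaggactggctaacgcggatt
SMG1P3: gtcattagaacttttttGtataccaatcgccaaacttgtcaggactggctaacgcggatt
SMG1P5: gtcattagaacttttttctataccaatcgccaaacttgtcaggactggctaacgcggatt
SMG1P6: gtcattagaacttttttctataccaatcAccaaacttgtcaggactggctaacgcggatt
SMG1P7: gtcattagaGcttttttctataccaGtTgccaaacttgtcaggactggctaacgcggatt

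Counted from 1 at the 5′ end of this stretch, SMG1P1 and SMG1P3 share the substitution C18G and so cannot be told apart here. SMG1P2 carries C3G and T5C, SMG1P6 carries G29A, and SMG1P7 carries A10G, A26G and C28T. SMG1P5 is identical to SMG1 over these bases. Across whole transcripts, 72.0% of the 100-base words of SMG1P1 also occurred in SMG1P3, and 86.8% of those of SMG1P2 occurred in SMG1P5. The share of 100-base words found elsewhere in the family was 7.4% for SMG1, 15.7% for SMG1P7, and between 72.4% (SMG1P6) and 92.6% (SMG1P2) for the other pseudogenes. With 50-base words this share was 13.7% for SMG1 and 32.6% for SMG1P7. Reads of the copies can therefore be assigned to one another, and each level below is uncertain for that reason, least so for SMG1 and SMG1P7. SMG1P4, an annotated copy outside the 8 genes, shares 72.7% of the words of SMG1P1 and averaged 1.45 ± 0.985 CPM over the HepG2 and 1.35 ± 0.789 CPM over the SH-SY5Y libraries (SD, n = 6). CPM are counts scaled to the library total.

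Both genes that had been picked by their values overlap other genes on the same strand. ENSG00000260342 (chr16:18788063-18801519, minus strand) begins 3333 bases past the end of SMG1 and is annotated as a protein-coding readthrough of 764 bases in 7 exons. Of its exon bases, 546 belong to ARL6IP1, a membrane-shaping protein of the endoplasmic reticulum, and 218 to RPS15A, a protein of the small ribosomal subunit, so that none is its own. SMG1P6 shares 587 exon bases with BOLA2-SMG1P6, a readthrough that starts at BOLA2, and 499 with BOLA2 itself, whose protein helps to handle iron and sulfur clusters. Among the other pseudogenes, SMG1P1 shares 2061 exon bases with NPIPB5, and SMG1P3 shares 386 with NPIPB3 and 536 with SLC7A5P2. SMG1 has 171 exon bases opposite an antisense gene, and whether the counting used strand is not given. BOLA2-SMG1P6 shares 43.5% of its exon bases on the same strand. For ENSG00000260342, only reads across certain splice junctions belong to it alone, and for BOLA2-SMG1P6 such a junction ties BOLA2 to SMG1P6. The junction of ENSG00000260342 joins its exon 5 (chr16:18794599-18794683) to exon 6 (chr16:18788981-18789118), and that of BOLA2-SMG1P6 joins exon 2 (chr16:29454016-29454113) to exon 3 (chr16:29446802-29446922). Lower case is the upstream exon, capitals the downstream exon, and each sequence occurred in the transcripts of 1 gene.
ENSG00000260342: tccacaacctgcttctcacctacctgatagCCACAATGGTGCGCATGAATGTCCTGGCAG
BOLA2-SMG1P6: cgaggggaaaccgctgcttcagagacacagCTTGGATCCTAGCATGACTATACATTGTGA

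**Figure D1:**
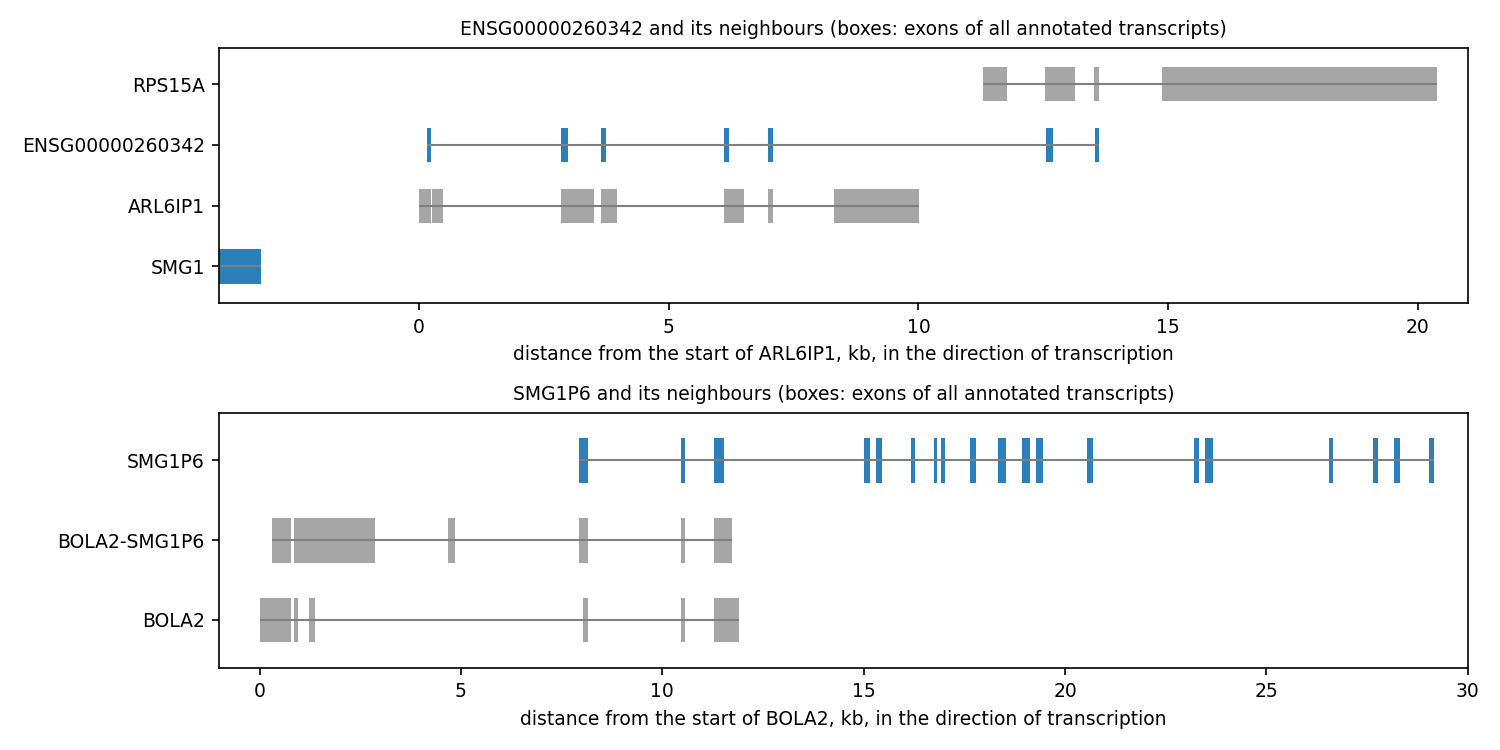
Exons of ENSG00000260342 and SMG1P6 (blue, with the end of SMG1) and of the genes that overlap them (grey), by distance in kb from the start of ARL6IP1 or BOLA2 in the direction of transcription. Every exon of ENSG00000260342 lies on an exon of ARL6IP1 or RPS15A, and the first exons of SMG1P6 lie on exons of BOLA2 and BOLA2-SMG1P6.

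Library totals ranged from 66056962 to 77100150 counts. Of 10 hepatocyte markers, 10 exceeded 1 CPM in HepG2 and 7 in SH-SY5Y, where their summed level was 225 to 286 CPM against 89175 to 96970 CPM in HepG2. Of 10 sympathetic neuroblast markers, 9 did so in SH-SY5Y and 2 or 3 in HepG2. Of 6 fibroblast markers, 6 exceeded 1 CPM in SH-SY5Y and 1 in HepG2. Replicate 1 of HepG2 EXACT1 and replicate 2 of the SH-SY5Y controls stood apart, with a mean correlation to their own group of 0.900 and 0.886 against 0.931 to 0.993 in the other libraries. In these libraries, genes with transcripts of at least 8000 bases were low, with a median log2 ratio to the other 5 libraries of the line of -1.68 and -1.51, while genes under 1000 bases had 0.63 and 0.45. Transcript length thus moved with these libraries, and its part in the results below was not tested. Results that they move are given with and without them, except those of the gene lists between the plasmids.

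SMG1 mRNA lay between 78.2 and 119 CPM in 10 of the 12 libraries and was low in the outlying library of each line. It measured 108, 111 and 119 CPM in the HepG2 controls and 15.2, 105 and 108 CPM in HepG2 with EXACT1. It measured 78.2, 18.2 and 107 CPM in the SH-SY5Y controls and 115, 88.5 and 109 CPM in SH-SY5Y with EXACT1. The lone low value of each line belonged to its outlying library, where the log2 ratio of SMG1 to the median of the other 5 libraries was -2.79 in HepG2 and -2.53 in SH-SY5Y. Without them, SMG1 averaged 110 ± 5.26 CPM over the HepG2 libraries against 99.5 ± 15.5 CPM over the SH-SY5Y libraries (SD, n = 5).

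SMG1P1 was the most abundant pseudogene, at 28.4 to 29.1 CPM in the HepG2 controls and 47.9, 19.4 and 50.9 CPM in the SH-SY5Y controls. With EXACT1 it measured 7.87, 29.4 and 34.1 CPM in HepG2, against 52.1, 51.7 and 48.2 CPM in SH-SY5Y. As for SMG1, its lowest value in each line came from the outlying library. SMG1P5, by contrast, varied little: 9.21, 9.83 and 9.07 CPM in the HepG2 controls, 6.64, 9.58 and 8.96 CPM with EXACT1, 25.2, 20.4 and 22.6 CPM in the SH-SY5Y controls and 20.2, 22.6 and 20.6 CPM with EXACT1. Every SH-SY5Y library lay above every HepG2 library for SMG1P5, and its log2 ratio in the outlying libraries was -0.44 and -0.14.

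SMG1P7, the copy on the long arm, was low in HepG2 and present in SH-SY5Y. It had 51, 36 and 20 counts in the HepG2 controls (0.700, 0.480 and 0.271 CPM) and 15, 49 and 69 counts with EXACT1 (0.212, 0.643 and 0.895 CPM). In SH-SY5Y it had 626, 248 and 522 counts in the controls (8.85, 3.75 and 7.19 CPM) and 498, 501 and 565 counts with EXACT1 (6.90, 6.91 and 8.08 CPM). The highest HepG2 library lay below the lowest SH-SY5Y library, the outlying one included. In bulk RNA, fewer cells with a transcript and less of it per cell cannot be told apart.

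SMG1P2 and SMG1P3 were low in both lines. SMG1P2 ranged from 3.36 to 8.29 CPM over the HepG2 libraries and from 8.82 to 17.3 CPM over the SH-SY5Y libraries, with no overlap between the lines. SMG1P3 ranged from 0.832 to 8.08 CPM in HepG2 and from 0.984 to 5.48 CPM in SH-SY5Y, and the lines overlapped. SMG1P6, also low, ranged from 0 to 2.80 CPM in HepG2 and from 0 to 4.17 CPM in SH-SY5Y. The counts of 0 came from the outlying library of each line, and 0 counts there allow a level of up to 0.0423 CPM in HepG2 EXACT1 replicate 1 and 0.0454 CPM in SH-SY5Y control replicate 2 (3 counts of the library total, counting error only).

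**Figure D2:**
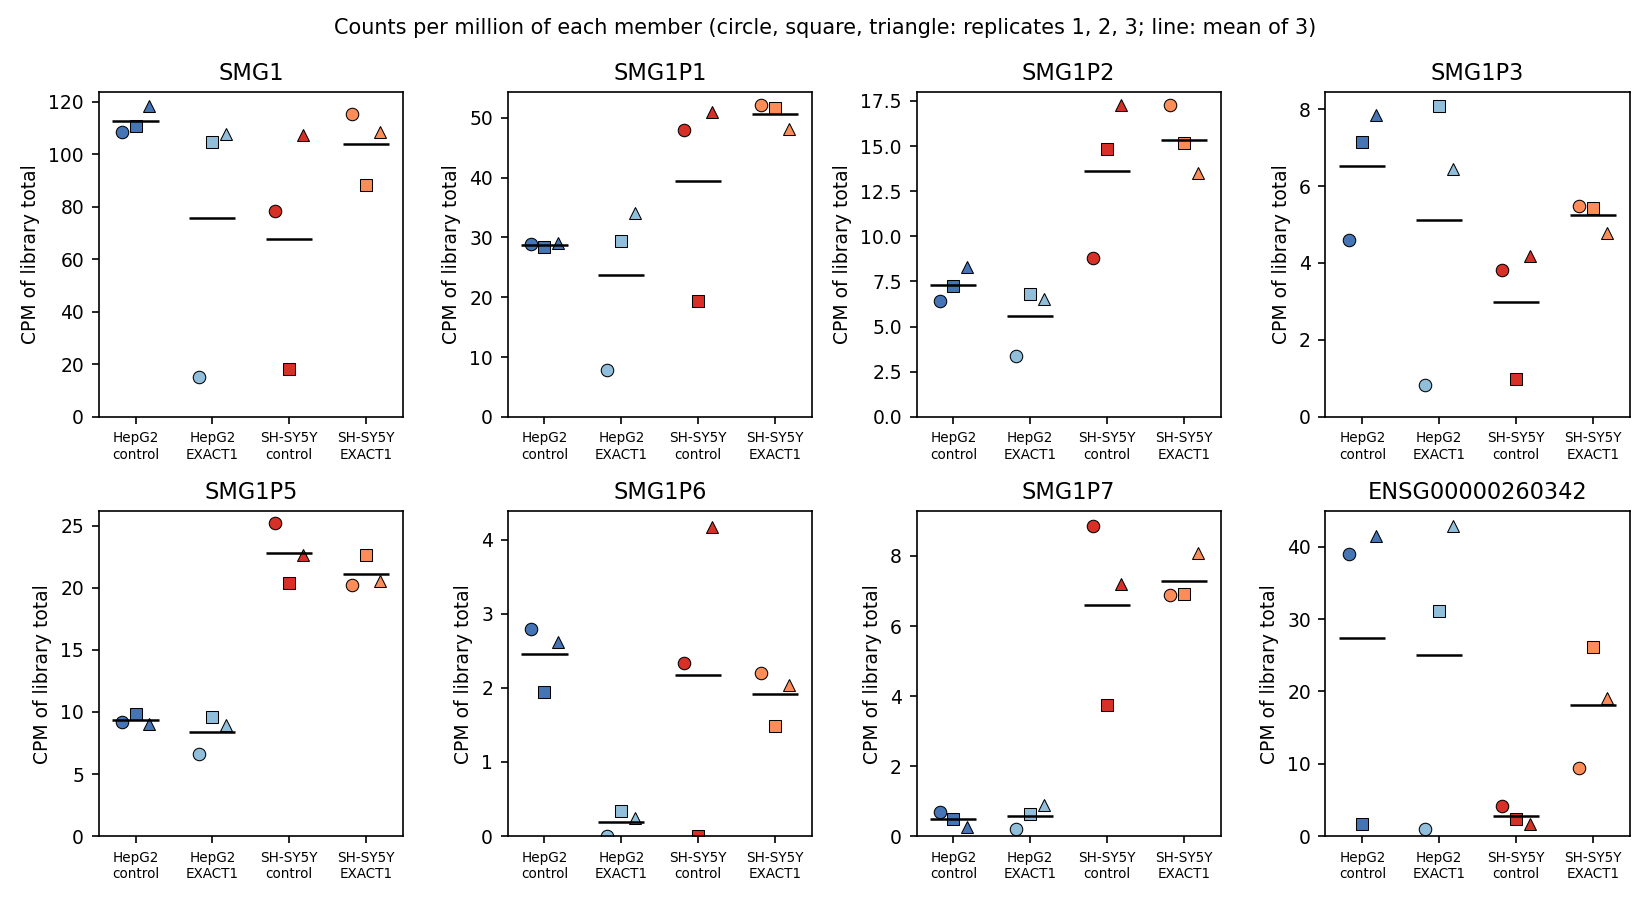
CPM of library total of each of the 8 genes in the 12 libraries, by cell line and plasmid. Symbols are replicates and lines are means of 3. SMG1P7 lies between 0.212 and 0.895 CPM in HepG2 and between 3.75 and 8.85 CPM in SH-SY5Y, and the low symbols of SMG1 (15.2 and 18.2 CPM) are the outlying libraries.

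Per kb of annotated exon, the order of the family differed between the lines. In HepG2, SMG1P1 (3.73 ± 1.32 CPM per kb, SD, n = 6) and SMG1 (3.62 ± 1.5) led and did not differ beyond their spread. SMG1P5 (1.85 ± 0.239) and SMG1P2 (1.53 ± 0.393) followed, then SMG1P3 (0.819 ± 0.386), SMG1P6 (0.452 ± 0.435) and SMG1P7 (0.120 ± 0.0593). In SH-SY5Y the order was SMG1P1 (6.39 ± 1.80), SMG1P5 (4.58 ± 0.406), SMG1P2 (3.43 ± 0.743) and SMG1 (3.31 ± 1.39), where SMG1P2 and SMG1 did not differ beyond their spread, then SMG1P7 (1.57 ± 0.393), SMG1P6 (0.696 ± 0.461) and SMG1P3 (0.579 ± 0.235). Over both plasmids, SMG1P7 was thus last in HepG2 and ahead of SMG1P6 and SMG1P3 in SH-SY5Y. In the HepG2 controls SMG1P7 averaged 0.109 CPM per kb against 0.838 for SMG1P6. With EXACT1 in HepG2, SMG1P6 averaged less (0.0668 ± 0.0601) than SMG1P7 (0.132 ± 0.0780, SD, n = 3), within their spread. The HepG2 values took part in the choice of SMG1P6, so its place in either plasmid group is only a description. ENSG00000260342 averaged 34.2 ± 25.7 CPM per kb in HepG2 and 13.7 ± 13.1 in SH-SY5Y, over exons that all belong to other genes as well. Without the outlying library, SMG1 (3.83 ± 0.597, SD, n = 5) lay above SMG1P2 (3.41 ± 0.830) in SH-SY5Y, again within their spread. These levels divide by all annotated exon bases of a gene, 25988 for SMG1. Divided by the longest transcript of each gene instead, SMG1P1 (6.23 ± 2.19 CPM per kb) and SMG1 (5.84 ± 2.42) again led in HepG2. In SH-SY5Y, SMG1 (5.34 ± 2.23) then moved from the fourth place to the second, behind SMG1P1 (10.7 ± 3.00) and within its spread of SMG1P5 (5.20 ± 0.461), with SMG1P2 at 3.43 ± 0.743.

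Pseudogenes took a larger part of the family's counts in SH-SY5Y than in HepG2, with some overlap that came from 1 library. Of the summed counts of SMG1 and the 6 pseudogenes, pseudogenes held 37.2 ± 9.01% in HepG2 and 55.1 ± 11.1% in SH-SY5Y (SD, n = 6). Without the outlying libraries the shares were 33.5 ± 0.992% and 50.7 ± 3.70% (SD, n = 5), and the ranges of 32.5% to 34.7% and 47.2% to 55.4% did not overlap. This share compares genes within a library, so it does not depend on how libraries are scaled. It is a description of a chosen family and carries no test.

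SMG1 alone held 67.3%, 66.8% and 67.5% of the family's counts in the HepG2 controls and 44.5%, 65.6% and 65.3% with EXACT1. In SH-SY5Y it held 44.6%, 23.4% and 50.2% in the controls and 52.5%, 46.1% and 52.8% with EXACT1. The outlying libraries again gave the lowest value of each line. SMG1P7 held 0.408 ± 0.169% in HepG2 and 3.99 ± 0.788% in SH-SY5Y (SD, n = 6). Reads could pass between SMG1P1 and SMG1P3, and between SMG1P2, SMG1P5 and SMG1P6, so their sums are given too. Without the outlying libraries, SMG1P1 and SMG1P3 summed to 36.8 ± 2.60 CPM in HepG2 against 54.9 ± 2.54 CPM in SH-SY5Y, and SMG1P2, SMG1P5 and SMG1P6 summed to 18.0 ± 1.71 and 39.1 ± 3.22 CPM (SD, n = 5).

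**Figure D3:**
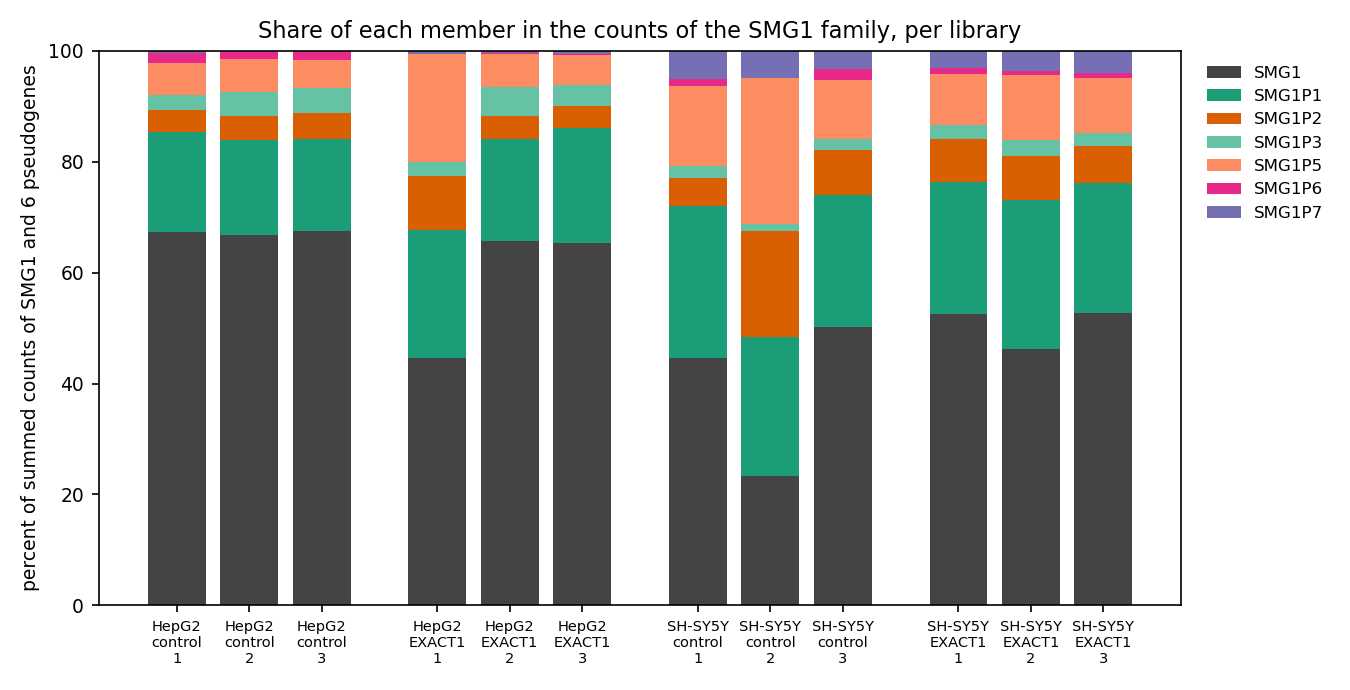
Percent of the summed counts of SMG1 and its 6 pseudogenes that each gene held, per library. SMG1 holds 65.3% to 67.5% in 5 HepG2 libraries and 44.6% to 52.8% in 5 SH-SY5Y libraries, and less in the outlying library of each line (44.5% and 23.4%).

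The lines were then compared with edgeR, first in the control libraries. All 8 genes passed the filter on low counts in each comparison. SMG1P7 was lower in HepG2, with a log2 fold change of -3.07 (SE 0.50, 95% interval -4.25 to -1.88, adjusted p = 0.00248, edgeR). SMG1P5 was also lower (-0.64, SE 0.22, edgeR adjusted p = 0.0482) and SMG1P3 higher (1.84, SE 0.51, edgeR adjusted p = 0.0211). Of 19775 genes tested, 53.2% were called, 23.2% higher and 30% lower in HepG2, so 3 calls among the 6 genes not picked by value are near the background. For SMG1 the log2 value was 1.46 (SE 0.51, 95% interval 0.23 to 2.69, edgeR adjusted p = 0.0504), for SMG1P1 0.25 (SE 0.31) and for SMG1P2 -0.29 (SE 0.36), and none of these passed. SMG1P6 (0.94, SE 1.32) and ENSG00000260342 (3.96, SE 1.11) are descriptions, since these libraries took part in their choice. Of the 6 genes not picked by value, the CPM of 5 did not overlap between the lines, against 70.4% of all genes. SMG1 and SMG1P3 were the higher ones (21.9% of all genes) and SMG1P2, SMG1P5 and SMG1P7 the lower ones (48.5%).

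The EXACT1 libraries, which share none with the controls, gave the same call for SMG1P7 and no other. SMG1P7 had a log2 fold change of -2.79 (SE 0.48, 95% interval -3.94 to -1.63, edgeR adjusted p = 0.0035) among 20105 genes, of which 52.4% were called, 24.3% higher and 28.1% lower in HepG2. Of the 6 genes not picked by value, the CPM of 4 did not overlap (76.5% of all genes), and these were lower in HepG2: SMG1P1, SMG1P2, SMG1P5 and SMG1P7 (58.1% of all genes lower and 18.4% higher in this way). SMG1P5 stood at -0.43 (SE 0.23), SMG1P2 at -0.58 (SE 0.29), SMG1P3 at 0.80 (SE 0.68), SMG1 at 0.37 (SE 0.61) and SMG1P1 at -0.24 (SE 0.45), none past the threshold. Without HepG2 EXACT1 replicate 1, SMG1 (0.83, adjusted p = 0.000431), SMG1P3 (1.28, adjusted p = 0.000829) and SMG1P5 (-0.38, adjusted p = 0.0293) passed in edgeR. SMG1 also passed in the controls without SH-SY5Y control replicate 2 (1.08, SE 0.14, edgeR adjusted p = 0.000486). SMG1P3 did not pass without HepG2 control replicate 2 (1.78, adjusted p = 0.0629) or 3 (1.73, adjusted p = 0.0668). SMG1P5 did not pass without any 1 of the 3 HepG2 controls or of SH-SY5Y control replicates 1 and 3 (edgeR adjusted p from 0.065 to 0.179).

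These differences depend on how the libraries are scaled, except that of SMG1P7. The test scales libraries by TMM, a trimmed mean of gene ratios, which sets the typical gene of the lines nearly equal. Computed over all 12 libraries together, the factors were 0.563 to 0.824 in HepG2 and 1.04 to 1.42 in SH-SY5Y. Each test computed its own factors from the libraries it compared. In the controls, TMM moved the median log2 fold change of all genes from -0.91 with library totals alone to -0.27. With EXACT1 it moved from -1.08 to -0.18. The split of calls moved with it: 43.7% of the calls in the controls were higher in HepG2 with TMM and 27.5% with library totals, and 46.4% against 25.9% with EXACT1. With library totals, SMG1 stood at 0.73 in the controls (edgeR adjusted p = 0.316) and turned to -0.46 with EXACT1 (edgeR adjusted p = 0.576). SMG1P1 turned to -0.45 in the controls, and SMG1P3 stood at 1.12 in the controls (edgeR adjusted p = 0.135) and turned to -0.03 with EXACT1. SMG1P5 moved to -1.28 and -1.33 (edgeR adjusted p = 0.0037 and 0.00442) and SMG1P2 to -0.90 and -1.46 (edgeR adjusted p = 0.0538 and 0.0109). The values of SMG1 with library totals include the outlying libraries. Without those, SMG1 averaged 113 CPM in the HepG2 controls against 92.7 CPM in the SH-SY5Y controls (SD 5.36 and 20.5, n = 3 and 2). With EXACT1 it averaged 106 CPM in HepG2 against 104 CPM in SH-SY5Y (SD 2.06 and 13.9, n = 2 and 3). The log2 fold change of SMG1P7 stayed between -4.05 and -2.75 in the controls and between -3.64 and -2.44 with EXACT1 under each alternative in which it was a row of its own, and each of them called it.

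**Figure D4:**
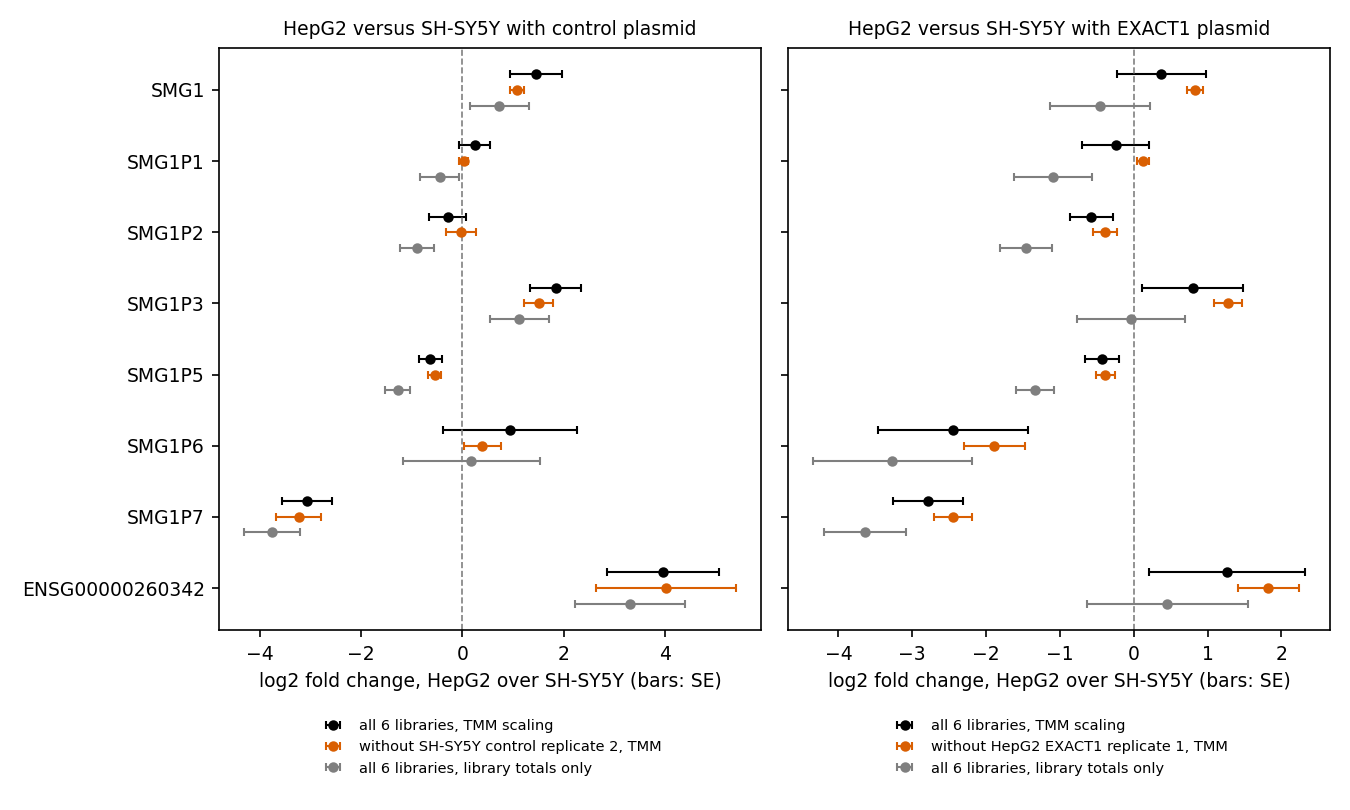
Log2 fold change of each of the 8 genes, HepG2 over SH-SY5Y, in the control libraries (left) and the EXACT1 libraries (right), with bars of 1 SE. Black is the test with all 6 libraries and TMM, orange leaves out the outlying library, and grey uses library totals with all 6 libraries. SMG1P7 lies below -2 under each, while SMG1 lies at 1.46, 1.08 and 0.73 in the controls and at 0.37, 0.83 and -0.46 with EXACT1.

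The nearest genes of the members differed in direction between the lines. EXOSC6, a subunit of the RNA exosome that lies 167 bases from SMG1P7, was also lower in HepG2, at 23.7 CPM on average against 79.3 CPM in SH-SY5Y. Its log2 fold change was -1.01 (SE 0.22, edgeR adjusted p = 0.00797) in the controls and -0.96 (SE 0.27, edgeR adjusted p = 0.0218) with EXACT1, and larger with library totals (-1.65 and -1.84). ARL6IP1, 3174 bases from SMG1, averaged 440 CPM over the HepG2 and 441 CPM over the SH-SY5Y libraries, and passed only in the controls (1.06, SE 0.31, edgeR adjusted p = 0.0277) and not with library totals (0.36, edgeR adjusted p = 0.462). Without the outlying library it passed in the controls (0.82, edgeR adjusted p = 0.00016) and with EXACT1 (0.80, edgeR adjusted p = 2.24e-05). ABCC6P1, a pseudogene of the transporter ABCC6 and the nearest gene past ENSG00000260342 and its host genes on the other side from SMG1, averaged 62.7 CPM over the HepG2 and 0.272 CPM over the SH-SY5Y libraries (log2 fold change 9.10 and 8.20, edgeR adjusted p = 3.31e-05 and 0.0001). NPIPB11, NPIPB12 and NPIPB13, next to SMG1P6, SMG1P2 and SMG1P5, were not called in either comparison, with or without the outlying library. SMG1-DT, which starts 408 bases from SMG1, had 0 counts in all 12 libraries. The remaining nearest genes had at most 26 counts in any library.

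Between the plasmids in HepG2, edgeR tested 17139 genes and called 0, with 164 at an unadjusted p under 0.05, while DESeq2 called 10 and limma voom 1. SMG1 had a log2 fold change of -0.56 with EXACT1 (SE 0.59, 95% interval -1.97 to 0.86, edgeR adjusted p = 0.792), and -0.10 (SE 0.06) without EXACT1 replicate 1. SMG1P1, SMG1P2, SMG1P3, SMG1P5 and SMG1P7 stood between -0.34 (SMG1P3, SE 0.68) and 0.29 (SMG1P7, SE 0.60). Of the 7 genes not picked in this comparison, the CPM of SMG1 alone did not overlap between the plasmids and was lower with EXACT1. Of all genes 9.49% did not overlap, 4.89% higher and 4.6% lower. The gap of SMG1 was from 107.6 to 108.4 CPM.

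SMG1P6 is the gene that had been picked in this comparison. It had 204, 146 and 193 counts in the HepG2 controls (2.80, 1.95 and 2.62 CPM) and 0, 26 and 19 counts with EXACT1 (0, 0.341 and 0.246 CPM). All 3 EXACT1 libraries were lower than all 3 controls. The log2 fold change was -3.61 (SE 0.96), and -3.07 (SE 0.36) without EXACT1 replicate 1, given without a test. In SH-SY5Y, which the choice did not use, SMG1P6 measured 2.33, 0 and 4.17 CPM in the controls and 2.20, 1.49 and 2.04 CPM with EXACT1. There the plasmids overlapped, and the log2 fold change was -0.20 (SE 1.27, 95% interval -3.24 to 2.85, edgeR adjusted p = 0.955). The HepG2 value took part in the choice of SMG1P6, so this interval is not read against it. Whether the lines differ was not tested for this gene. Without SH-SY5Y control replicate 2 the value was -0.78 (SE 0.33).

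The overlapping readthrough differed less. BOLA2-SMG1P6 ranged from 8.93 to 11.5 CPM in the HepG2 controls and measured 5.25, 10.4 and 7.57 CPM with EXACT1, which is -0.29 on the log2 scale (SE 0.28, edgeR adjusted p = 0.792). SMG1P6 made up 19.6%, 17.0% and 22.7% of the summed counts of both in the HepG2 controls and 0%, 3.17% and 3.15% with EXACT1. These HepG2 shares hold the counts by which SMG1P6 was picked and are descriptions. In SH-SY5Y it made up 7.21%, 0% and 8.33% in the controls and 4.88%, 4.22% and 4.07% with EXACT1. With both genes summed, the log2 fold change in HepG2 was -0.58 (SE 0.28), which includes the same counts of SMG1P6. BOLA2 itself had 6 counts in HepG2 control replicate 1 and 5.94 and 7.36 CPM in the other controls, a further gene of this locus whose counts differed widely within a group. How the counting split reads between SMG1P6, BOLA2-SMG1P6 and BOLA2 was not tested.

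In SH-SY5Y, edgeR tested 19853 genes for the plasmids and called 0, with 200 at an unadjusted p under 0.05, while DESeq2 called 9 and limma voom 1. SMG1 had a log2 fold change of 0.56 (SE 0.50, 95% interval -0.64 to 1.76, edgeR adjusted p = 0.796), and 0.16 (SE 0.16) without control replicate 2. SMG1P1, SMG1P2, SMG1P3, SMG1P5 and SMG1P7 stood between -0.26 (SMG1P5, SE 0.20) and 0.74 (SMG1P3, SE 0.44). Of the 7 genes not picked in this comparison, the CPM of SMG1P3 alone did not overlap between the plasmids and was higher with EXACT1. Of all genes 8.08% did not overlap, 5.25% higher and 2.83% lower.

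ENSG00000260342 is the gene that had been picked in SH-SY5Y. It had 297, 159 and 120 counts in the SH-SY5Y controls (4.20, 2.41 and 1.65 CPM) and 678, 1890 and 1335 counts with EXACT1 (9.39, 26.1 and 19.1 CPM). All 3 EXACT1 libraries were higher than all 3 controls. The log2 fold change was 2.57 (SE 0.51), and 2.63 (SE 0.71) without control replicate 2, given without a test. In HepG2 its counts varied most within groups: 2839, 126 and 3058 in the controls (39.0, 1.68 and 41.4 CPM) and 72, 2367 and 3301 with EXACT1 (1.02, 31.1 and 42.8 CPM). There 1 library of each plasmid was low and the others high, and the log2 fold change was -0.14 (SE 1.33, 95% interval -3.32 to 3.04, edgeR adjusted p = 0.967). The SH-SY5Y value took part in the choice of ENSG00000260342, so this interval is not read against it. The low HepG2 control, replicate 2, was not an outlying library: its mean correlation with its group was 0.993.

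ARL6IP1, whose exons hold most of ENSG00000260342, was steadier. The sum of both genes was 497 to 592 CPM in 5 HepG2 libraries and 154 CPM in EXACT1 replicate 1, and 478 to 526 CPM in 5 SH-SY5Y libraries and 186 CPM in control replicate 2. ENSG00000260342 made up 7.69%, 0.338% and 7.00% of this sum in the HepG2 controls and 0.660%, 5.96% and 8.12% with EXACT1. In SH-SY5Y it made up 0.877%, 1.29% and 0.315% in the controls and 1.90%, 4.95% and 3.86% with EXACT1. These SH-SY5Y shares hold the counts by which ENSG00000260342 was picked and are descriptions. With both genes summed, the log2 fold change in SH-SY5Y was 0.26 (SE 0.30). ENSG00000260342 held at most 4.95% of that sum, so this value mostly describes ARL6IP1. How the counting split reads between the genes was not tested.

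The change with EXACT1 was also compared between the lines. Among 22009 genes edgeR called 0, with 1907 at an unadjusted p under 0.05, while DESeq2 called 24 and limma voom 1. The difference, HepG2 minus SH-SY5Y, was -1.10 for SMG1 (SE 0.82, edgeR adjusted p = 0.591) and -0.26 (SE 0.19) without both outlying libraries. It was -0.50 for SMG1P1, -0.27 for SMG1P2, -1.07 for SMG1P3, 0.23 for SMG1P5 and 0.27 for SMG1P7, none past the threshold. The differences of SMG1P6 (-3.40, SE 1.82) and ENSG00000260342 (-2.73, SE 1.58) follow from their choice and are descriptions. SMG1, the 6 pseudogenes and SMG1P4 were also summed to a single row. The log2 fold change of this sum with EXACT1 was -0.46 in HepG2 (SE 0.49, edgeR adjusted p = 0.791) and 0.31 in SH-SY5Y (SE 0.29, edgeR adjusted p = 0.796). Without the outlying library of each line it was -0.053 (SE 0.056) in HepG2 and 0.073 (SE 0.10) in SH-SY5Y.

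The genes whose levels went most with those of SMG1, SMG1P6 and ENSG00000260342 were sought among 11606 genes, after the mean of each line was subtracted. For SMG1 these were SELENOI, an enzyme of phospholipid synthesis, BIRC6, a large inhibitor of apoptosis, and TAOK1, a kinase, each with a Pearson r of 0.999 over the 12 libraries. Over the 10 libraries without the outlying ones, r was 0.969 for SELENOI and BIRC6 and 0.976 for TAOK1. For SMG1P6 they were ZNF440 (0.925), TRAF5 (0.910) and DLX6 (0.906), with 0.867, 0.762 and 0.800 over 10 libraries. For ENSG00000260342 they were SPATA2 (0.918), SBK1 (0.892) and WDSUB1 (0.879), with 0.885, 0.834 and 0.862 over 10 libraries. These are the highest of many correlations over libraries that share the outlying ones, and are given as descriptions. Plasmid means were not subtracted. For SMG1P6 and ENSG00000260342 the correlations thus include the plasmid differences by which these genes were picked.

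Neither SMG8 and SMG9, the partners of SMG1 in its complex, nor its substrate UPF1 was called between the plasmids. SMG8 averaged 27.2 ± 0.927 CPM in the HepG2 controls against 47.9 ± 23.7 CPM in the SH-SY5Y controls (SD, n = 3). SMG9 stood at 8.56 ± 0.545 and 40.8 ± 19.5 CPM, and UPF1 at 101 ± 3.04 and 128 ± 14.1 CPM. Of the 3, only SMG9 passed between the lines in the controls (log2 fold change -1.70, edgeR adjusted p = 0.0207), and with EXACT1 it did not (-0.40, edgeR adjusted p = 0.466) unless library totals were used (-1.39, edgeR adjusted p = 0.016). SMG9 was high in both outlying libraries, at 17.7 CPM in HepG2 EXACT1 replicate 1 and 63.1 CPM in SH-SY5Y control replicate 2, where SMG8 was low at 8.11 and 20.5 CPM. Without these libraries all 3 genes passed in both comparisons. Of all genes, 32.4% were then called higher and 37.7% lower in the controls, and 32.4% and 40.2% with EXACT1. SMG9 stood at -0.99 in the controls and -1.02 with EXACT1 (edgeR adjusted p = 0.00059 and 0.000224), SMG8 at -0.38 and -0.44 (edgeR adjusted p = 0.00522 and 0.00177), and UPF1 at 0.38 and 0.32 (edgeR adjusted p = 0.00389 and 0.00505). The direction of UPF1 depended on scaling. With library totals and all libraries it stood at -0.34 and -0.50 (edgeR adjusted p = 0.192 and 0.0649). SMG8 stood at -0.82 and -1.61 in that setting (edgeR adjusted p = 0.147 and 0.0226).

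The lists below are read against all genes tested, of which 23.2% were higher and 30% lower in HepG2 in the controls, and 24.3% and 28.1% with EXACT1. With library totals these shares were 16.3% and 42.9% in the controls, and 15.7% and 45.0% with EXACT1. Without the outlying library they were 32.4% and 37.7%, and 32.4% and 40.2%.

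Across 21 NMD factors, 4 were higher and 9 lower in the controls, with a median log2 fold change of -0.12 against -0.27 for all genes. With EXACT1, 4 were higher and 4 lower (median -0.25, all genes -0.18). Library totals gave 2 higher and 10 lower, and 1 higher and 11 lower. Leaving out the outlying library gave 7 higher and 11 lower, and 7 higher and 12 lower. GSPT2, a translation termination factor, was lower in the HepG2 controls, at 0.0677 CPM against 27.0 CPM (edgeR adjusted p = 3.98e-05). RUVBL1, an ATPase that helps to assemble the SMG1 complex, was lower (-2.22, edgeR adjusted p = 0.00125), and NBAS, a factor of NMD at the endoplasmic reticulum, was higher (1.93, edgeR adjusted p = 0.00112). These 3 were called in the same direction with EXACT1, where NBAS did not pass with library totals (0.62, edgeR adjusted p = 0.107). RUVBL2, the partner of RUVBL1, was lower in the controls (-1.87, edgeR adjusted p = 0.0362) and stood at 0.15 with EXACT1 (edgeR adjusted p = 0.821). Without the outlying library RUVBL2 was lower by a smaller amount in both (-0.82 and -0.64, edgeR adjusted p = 0.000159 and 0.000122).

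Of 12 genes of the exon junction complex, which marks spliced mRNA for NMD, 1 was higher and 4 lower in the controls (median 0.10), and 2 higher and 2 lower with EXACT1 (median 0.12). Library totals gave 0 higher and 6 lower, and 0 higher and 5 lower. The counts were 6 higher and 4 lower, and 6 higher and 3 lower, without the outlying library. The core subunit RBM8A (-2.14, edgeR adjusted p = 0.000364) and MAGOHB (-1.96, edgeR adjusted p = 0.000983) were lower in the HepG2 controls, MAGOH too (-0.77, edgeR adjusted p = 0.037). PNN, a splicing factor, was higher (1.77, edgeR adjusted p = 0.0108) but did not pass with library totals (1.05, edgeR adjusted p = 0.105).

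Of 16 PIKK kinases and their assembly factors, 1 was higher and 4 lower in the controls (median -0.28), and 1 higher and 1 lower with EXACT1 (median -0.53). Library totals gave 1 higher and 7 lower in the controls (median -0.98), and 0 higher and 11 lower with EXACT1 (median -1.46). Leaving out the outlying library gave 3 higher and 11 lower, and 2 higher and 12 lower. Besides RUVBL1 and RUVBL2, TELO2, which stabilises newly made PIKK proteins, was lower in the controls (-2.04, edgeR adjusted p = 0.0178), and stood at -1.17 without SH-SY5Y control replicate 2 (edgeR adjusted p = 0.000244). The chaperone HSP90AB1 was higher (1.11, edgeR adjusted p = 0.00192) and less so with library totals (0.47, edgeR adjusted p = 0.0479).

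Of 23 transcripts known to be lowered by NMD, 9 were higher and 7 lower in HepG2 in the controls (median 0.18), and 11 higher and 6 lower with EXACT1 (median 0.86). With library totals the medians turned to -0.47 and -0.05, with 5 higher and 10 lower, and 6 higher and 10 lower. The counts were 11 higher and 9 lower, and 12 higher and 8 lower, without the outlying library. SNHG15, a host RNA of small nucleolar RNAs, was lower (0.0271 CPM in the HepG2 controls against 37.3 CPM, edgeR adjusted p = 0.000629), while GADD45B, a stress-response gene (6.25, edgeR adjusted p = 0.000517), SLC7A11, a cystine transporter (3.59, edgeR adjusted p = 0.00423), and GABARAPL1, an autophagy gene (3.01, edgeR adjusted p = 0.000128), were higher. Members thus went both ways within the list.

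NPIP genes, which were duplicated along with SMG1, gave 2 calls of 18 in the controls and 4 of 19 with EXACT1, beside 53.2% and 52.4% of all genes. Of 18 tested in the controls, NPIPB15 was higher (3.69, edgeR adjusted p = 0.0172) and NPIPA8 lower (-2.45, edgeR adjusted p = 0.0121), with a median of -0.20. Without SH-SY5Y control replicate 2, NPIPA8 stood at -1.54 (edgeR adjusted p = 0.00132), and 5 of 19 were higher and 1 lower (median 0.27). With EXACT1, 4 of 19 were higher and 0 lower (median 0.73): NPIPB15, NPIPB3, NPIPB4 and NPIPB5, of which NPIPB3 (0.63), NPIPB4 (0.49) and NPIPB5 (turned to -0.20) did not pass with library totals. Without HepG2 EXACT1 replicate 1, 4 were higher and 1 lower (median 0.02).

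Of 22 other duplicated genes and copies of the short arm, 11 were higher and 2 lower in the controls (median 1.23), and 10 and 1 with EXACT1 (median 0.83). They included the transporter gene ABCC6 (5.76, edgeR adjusted p = 0.000348) and the sulfotransferase genes SULT1A3 (4.82, edgeR adjusted p = 0.0024) and SULT1A4 (4.68, edgeR adjusted p = 0.0071). With library totals this list kept a positive median in the controls (0.49, 10 higher and 6 lower) and had -0.10 with EXACT1 (9 higher and 2 lower). Leaving out the outlying library gave 13 higher and 2 lower, and 14 higher and 3 lower. The list holds genes together with their copies, such as ABCC6 and ABCC6P1, so its calls need not be separate results. How reads were shared among these copies was not tested.

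Of 17 neighbours of SMG1 tested, 8 were higher and 5 lower in HepG2 in the controls (median 1.06), and 6 and 5 with EXACT1 (median 0.46). XYLT1, a xylosyltransferase of proteoglycan synthesis (0.0183 CPM in the HepG2 controls against 18.0 CPM, edgeR adjusted p = 0.00113), SYT17, a synaptotagmin (-5.13, edgeR adjusted p = 0.000337), and VPS35L, an endosomal recycling factor (-4.63, edgeR adjusted p = 3.32e-05), were lower. With library totals, 3 were higher and 5 lower in the controls (median 0.36), and 4 higher and 7 lower with EXACT1 (median -0.39). Without the outlying library 9 were higher and 6 lower in each comparison.

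Between the plasmids, edgeR called 0 members of these 7 lists in either line. At an unadjusted p under 0.05 there were 0 in HepG2 and 1 in SH-SY5Y, among the duplicated genes of the short arm. Medians of the lists lay between -0.24 (PIKK genes) and 0.52 (NPIP genes) in HepG2, and between -0.45 (NPIP genes) and 0.21 (PIKK genes) in SH-SY5Y, against 0.00 and -0.01 for all genes. The members with the smallest p, none past the threshold, included RUVBL2 (0.88 in HepG2 and -1.13 in SH-SY5Y), SMG9 (0.62 and -0.67), PIH1D1, a subunit of the PIKK assembly complex (0.73 and -1.01), and NPIPB12 (1.26 and -1.30). The other members with the smallest p in HepG2 were PYM1 (0.50), EIF4A3 (0.29), CDKN1A (0.53), ARFRP1 (0.49), NPIPB15 (0.87), SLX1B (1.04), BOLA2B (1.07), GPRC5B (-1.05) and ARL6IP1 (-0.39). In SH-SY5Y they were MAGOH (-0.39), PYM1 (-0.61), DDIT3 (-0.94), ZFAS1 (-0.75), NPIPA7 (-0.95), SLX1A (-1.65), ABCC6P2 (-1.49), RPS15A (-0.68) and SYT17 (-0.30). EdgeR gave each of them an adjusted p of 0.792 in HepG2 and 0.796 in SH-SY5Y. These values and the medians include the outlying libraries, an EXACT1 library in HepG2 and a control library in SH-SY5Y. The part of those libraries in the opposite signs between the lines was not tested.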

How the data were processed

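The authors deposited whole-number counts per Ensembl gene ID, with no normalization. Tools named, per the submitters' processing notes, are cutadapt, HISAT2, StringTie, edgeR and limma, and the genome build is GRCh38 (hg38). Their versions, settings, the strand setting and how reads of similar genes were shared were each not given in the sources used here. Of 60612 row IDs, 42020 had a symbol. HEK293A counts, by row ID, had a mean Spearman rho of 0.0549 with the other lines (HepG2 with SH-SY5Y 0.797) and were left out. Sample titles gave the groups and replicate numbers. Nothing in the labels names separate cultures, so the p-values reflect only how far these samples spread, and that spread may be technical.

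Counts were tested with edgeR 4.0.16 in R 4.3.3 (filterByExpr, TMM, robust quasi-likelihood F test, two-sided) on the groups compared, with Benjamini-Hochberg adjustment over all genes tested and a call at an adjusted p under 0.05. The scripts were tested on simulated data. Library totals were 66056962 to 77100150 counts; a count of 0 allows up to 3 counts, counting error only. CPM are relative to library totals. Gene models and sequences came from GENCODE release 29 (GRCh38). Correlations used log2(CPM + 0.5).

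The members and the 7 gene lists (NMD factors, exon junction complex, PIKK kinases and assembly factors, transcripts lowered by NMD, NPIP family, other duplicated genes of 16p, neighbours of SMG1) were chosen with earlier results of these data known. Named were all 8 members, their nearest genes, up to 4 called members of each list by size between the lines in the controls, the 2 members with the smallest p between plasmids, and the 3 genes most correlated with SMG1, SMG1P6 and ENSG00000260342. SMG8, UPF1, SMG9 between the lines, NPIPB3, NPIPB4, NPIPB5, BOLA2, BOLA2-SMG1P6 and SMG1P4 were chosen for naming with their values known. Other settings tried were DESeq2 1.42.0, limma 3.58.1 voom with sample weights, RLE scaling, no filter, a replicate block, the family summed together with SMG1P4, each library left out and both outlying libraries left out. Sums of overlapping genes, library totals alone, library totals without the outlying library, correlations over 10 libraries, and the summed family and the lists without the outlying library were chosen after seeing the data.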

Additional observations from a re-analysis of the deposited data

How the results depend on the processing

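Leaving out 1 library gave 0 to 2 calls between plasmids in HepG2, 0 to 1 in SH-SY5Y and 8631 to 14714 (controls) or 8386 to 15515 (EXACT1) between the lines. DESeq2 called 10 genes in HepG2, 9 in SH-SY5Y and 24 for the difference between the lines, limma voom called 1 each, and 2 were called for the difference without both outlying libraries. With the family and SMG1P4 summed and the outlying library out, 1 gene was called in each line and 2 for the difference, and ENSG00000260342 had 0.42 in HepG2. Library totals without the outlying library gave 15886 calls in the controls and 16544 with EXACT1. SMG1 per kb was 3.44 to 4.23 CPM in HepG2 and 3.08 to 3.83 in SH-SY5Y with 1 library left out, and 5.84 and 5.34 by the longest transcript. The share of pseudogenes was 33.5% to 38.1% and 50.7% to 56.6%.

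Some values changed sign. With limma voom these were SMG1P1 (0.11), SMG1P3 (0.14) and ENSG00000260342 (1.82) in HepG2, SMG1P2 (0.48) and SMG1P7 (-0.18) in SH-SY5Y, SMG1P2 (0.21) between the lines in the controls, SMG1P1 (0.12) with EXACT1 and SMG1P1 (0.025) in the difference. With no filter, SMG1P2 had 0.017 in SH-SY5Y. With overlapping genes summed, SMG1P6 had 0.038 in SH-SY5Y and -0.98 between the lines in the controls. With library totals, SMG1P2 had 0.17 in SH-SY5Y, SMG1P1 -0.45 in the controls, SMG1 -0.46 and SMG1P3 -0.033 with EXACT1, and SMG1P5 -0.052 in the difference. With the outlying library out as well, SMG1P1 had -0.78 and SMG1P6 -0.41 in the controls, and without both outlying libraries SMG1P1 had 0.10 in the difference.

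Leaving out 1 library gave, in HepG2, -0.74 to 0.42 for ENSG00000260342, -0.54 to 0.12 for SMG1P1, -0.83 to 0.14 for SMG1P3 and -0.085 to 0.67 for SMG1P7. In SH-SY5Y it gave -0.27 to 0.22 for SMG1P2, -0.78 to 0.70 for SMG1P6 and -0.14 to 0.25 for SMG1P7. Between the lines with EXACT1 it gave -0.54 to 0.13 for SMG1P1, and in the difference -0.55 to 0.0090 for SMG1P2 and -0.076 to 0.65 for SMG1P7. The cause of these turns was not tested.

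Same-numbered replicates did not all deviate together (r from -0.13 to 0.39), and the numbers were not taken to pair the samples. Between EXACT1 and control in SH-SY5Y, r was 0.39, 0.18 and 0.0086. These values cannot settle whether samples were paired, because deviations were taken from group means that include the outlying libraries. With the replicate block, 8725 genes were called between the lines in the controls and 7809 with EXACT1, SMG1 passed in the controls (1.69, edgeR adjusted p = 0.0428), SMG1P5 did not (-0.64, edgeR adjusted p = 0.129), and SMG1P2 (0.052) and SMG1P6 (0.76) turned in SH-SY5Y.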
